A study of Mus musculus with 12 samples.

Results

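Guidance genes encode the ligands and receptors by which cells attract or repel one another on contact or over short distances. Those described here were taken by their symbols from the deposited gene table: every ephrin, Eph receptor, semaphorin of classes 3 to 7, plexin, neuropilin, Slit, Robo, netrin and Unc5 gene. The rule found 68 of 23306 genes, all with at least 1 read. They comprised 8 ephrins, 14 Eph receptors, 20 semaphorins, 11 plexins and neuropilins, 7 Slits and netrins, and 8 Robo and Unc5 receptors. No measured value entered the rule, but the members were chosen with earlier results of these data known.

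Ephrins are ligands held in the membrane, the A type by a lipid anchor and the B type by a membrane-spanning segment, and they signal to Eph receptor tyrosine kinases, and back into their own cell, when cells touch. Semaphorins of class 3 are secreted and bind neuropilins, which pair with plexins as the signalling subunit, while the other classes are mostly membrane proteins that bind plexins directly. Slits signal through Robo receptors, and netrins through Unc5 receptors and DCC. In blood vessels ephrin-B2 marks arterial and its receptor EphB4 venous endothelium, and in the thymus several of these molecules are known from the organisation of the epithelium and the movement of thymocytes.

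The study sorted stromal cells from the thymus of C57 BL6 mice carrying a tomato reporter for Kit ligand and sequenced their polyadenylated RNA. All cells were negative for the lineage markers and for the dead-cell dye Dapi. Tomato+ vascular endothelial cells (VEC) were CD31+, EpCAM- and tomato+, and tomato- VEC had the same surface markers without reporter signal. Tomato+ cortical thymic epithelial cells (cTEC) were EpCAM+, CD31-, Ly51+, UEA1- and tomato+, whereas tomato- medullary thymic epithelial cells (mTEC) were EpCAM+, CD31-, UEA1+, Ly51- and tomato-. The epithelial groups thus differ in both reporter and layer, which cannot be told apart. Each of the 4 groups had 3 libraries, and every animal carried the reporter. The age and sex of the mice, how the reporter was built, and whether cells were pooled over animals are not given in the labels. The labels do not tie replicates to animals, so each p-value reflects library-to-library spread alone, which may be technical.

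The 12 libraries held 8388869 to 11807130 counted reads. Guidance genes took 0.337% to 0.379% of the reads in tomato+ VEC, 0.221% to 0.287% in tomato- VEC, 0.140% to 0.164% in tomato+ cTEC and 0.0929% to 0.120% in tomato- mTEC. Endothelial markers such as Cdh5 and Pecam1 were high in every VEC library, and 8 epithelial markers together stayed at or below 1.97 CPM (read counts scaled to a common library size) there. In the TEC libraries the 8 epithelial markers summed to 3534 to 5205 CPM. One epithelial library stood apart: the 8 endothelial markers summed to 389 CPM in cTEC replicate 2, against 19.5 and 2.25 CPM in cTEC replicates 1 and 3 and 26.1 to 65.3 CPM in mTEC. Among endothelial libraries, 3 platelet markers summed to 174 CPM in tomato- VEC replicate 1. They summed to 9.35 and 3.36 CPM in tomato- VEC replicates 2 and 3 and to 3.32 to 18.3 CPM in tomato+ VEC. The part of these markers in that library's levels was not tested. In bulk samples such as these, fewer cells of a type and less RNA per cell cannot be told apart.

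One ligand led the guidance genes in each population. Efna1, which encodes ephrin-A1, was the highest member by RPKM (read counts scaled for library total and gene length, which allows genes of different length to be compared) in all 4 groups. It stood at 338 ± 21.0 RPKM in tomato+ VEC, 342 ± 107 RPKM in tomato- VEC, 206 ± 10.2 RPKM in tomato+ cTEC and 73.2 ± 0.868 RPKM in tomato- mTEC (SD, n = 3 each). On average it made up 37.1% of the summed RPKM of the 68 genes in tomato+ VEC, 46.3% in tomato- VEC, 48.4% in cTEC and 29.6% in mTEC. Behind it the populations differed in which genes came next. In tomato+ VEC these were Nrp1 at 210 ± 20.3, Efnb2 at 106 ± 21.9 and Robo4 at 72.4 ± 9.37 RPKM (SD, n = 3). In tomato- VEC they were Robo4 at 111 ± 42.7, Nrp1 at 94.0 ± 13.5 and Ephb4 at 24.0 ± 4.90 RPKM. In both epithelial groups the next were Efna5, which encodes ephrin-A5, and Efnb2. Efna5 stood at 36.0 ± 10.8 RPKM in cTEC and 25.4 ± 4.72 RPKM in mTEC, and Efnb2 at 34.2 ± 7.57 RPKM in cTEC and 17.0 ± 5.42 RPKM in mTEC.

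Summed by role, ephrin ligands were the most abundant class per length in every group, and Slits and netrins the least. Ephrins summed to 464 ± 42.9 RPKM in tomato+ VEC, 363 ± 104 in tomato- VEC, 286 ± 19.3 in cTEC and 125 ± 0.855 in mTEC (SD, n = 3 each). Their Eph receptors summed to 46.7 ± 12.9 RPKM in tomato+ VEC, 34.4 ± 1.68 in tomato- VEC, 22.6 ± 2.02 in cTEC and 28.7 ± 9.25 in mTEC. Plexins and neuropilins together reached 257 ± 19.7 RPKM in tomato+ VEC and 160 ± 14.3 RPKM in tomato- VEC, against 45.2 ± 12.3 RPKM in cTEC and 28.3 ± 5.71 RPKM in mTEC. The plexins alone summed to 31.5 ± 3.10 RPKM in tomato+ VEC and 47.2 ± 8.13 RPKM in tomato- VEC. In the epithelium they summed to 33.3 ± 6.26 RPKM in cTEC and 24.5 ± 5.61 RPKM in mTEC. The neuropilins alone summed to 226 ± 20.6 RPKM in tomato+ VEC and 113 ± 7.22 RPKM in tomato- VEC. They summed to 12.0 ± 6.14 RPKM in cTEC and 3.76 ± 0.779 RPKM in mTEC. Slits and netrins summed to 4.16 ± 2.37 RPKM or less in each group. Semaphorins lay closer together across groups, between 43.1 ± 8.36 RPKM in mTEC and 66.0 ± 1.98 RPKM in tomato+ VEC. The heat map of all members shows these blocks library by library.

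**Figure D1:**
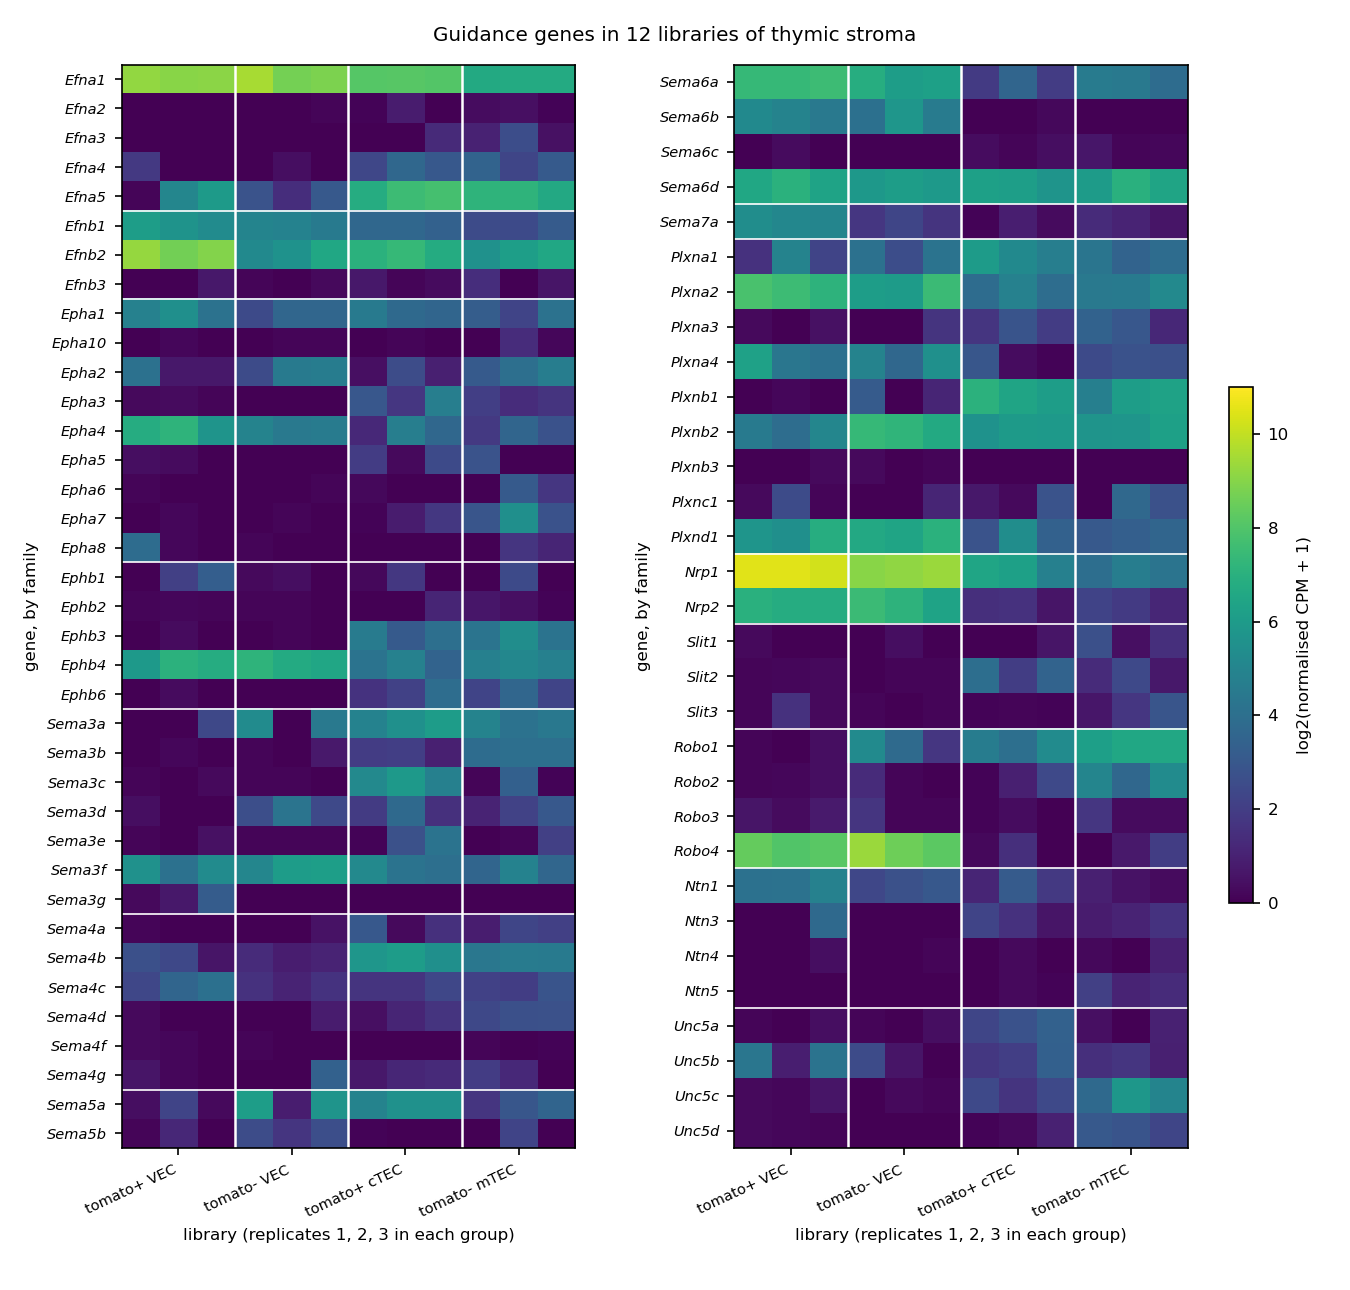
Level of each of the 68 guidance genes (rows, grouped by family) in each of the 12 libraries (columns; from left to right 3 replicates each of VEC with and without reporter, then of cTEC and mTEC), as log2(normalised CPM + 1). Efna1 is high in all columns, Nrp1, Nrp2, Robo4 and Sema6b stand out in the 6 VEC columns, and Plxnb1, Sema4b and Ephb3 in the 6 TEC columns.

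Not every gene was measurable in every population. A mean of at least 1 CPM was reached by 32 members in tomato+ VEC, 32 in tomato- VEC, 46 in cTEC and 55 in mTEC. A mean of at least 10 CPM was reached by 23 in tomato+ VEC, 21 in tomato- VEC, 22 in cTEC and 21 in mTEC. For the tests, 56 members passed the filter on low counts and 12 did not (Efna2, Efnb3, Epha6, Epha10, Ephb2, Ntn4, Plxnb3, Robo3, Sema3g, Sema4f, Sema6c and Slit1, with 5 to 99 reads each over all 12 libraries). Some members varied sharply between replicates of a group. In tomato+ VEC, Efna5, Epha2, Epha8, Ntn3 and Unc5b reached 10 CPM in at least 1 library and stayed under 1 CPM in another, as did Sema3a and Sema5a in tomato- VEC. All 119 endothelial reads of Ntn3, for example, lay in tomato+ VEC replicate 3. These are 5 of the 26 members that reached 10 CPM in tomato+ VEC (19.2%, against 15.7% of all such genes) and 2 of 23 in tomato- VEC (8.70%, against 9.59% of all such genes).

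The first comparison asked which guidance genes differ between endothelial cells with and without reporter signal. Of the 56 tested members 1 rose, Efnb2, and 2 fell, Plxnb2 and Robo1, in tomato+ VEC; 53 did not pass. This is 5.36% of the members tested, against a background of 1.65% of all 14792 genes tested (0.568% higher and 1.08% lower). The test was edgeR's quasi-likelihood F test, called at a Benjamini-Hochberg adjusted p under 0.05 over all genes tested. The median log2 difference of the members was 0.59, or 0.56 with 4 genes that had no read in one group set at a bound of 3 counts and 6 with at most 3 reads in either group left out, against 0.00 over all genes tested. Libraries of the groups did not overlap for 12 members higher and 4 lower, against 7.46% and 8.32% of all genes tested. At an unadjusted p under 0.05 there were 17 members, against 16.2% of all genes tested.

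Efnb2, the ligand that marks arteries, was the leading change. It had 618, 400 and 502 CPM in the 3 tomato+ VEC libraries and 36.5, 47.1 and 93.7 CPM in the 3 tomato- VEC libraries. Every tomato+ library was thus far above every tomato- library, and the gene rose by a fitted log2 3.10 (SE 0.39, edgeR adjusted p = 0.00194). Its sister Efnb1, which encodes ephrin-B1, had 67.9, 49.4 and 38.9 CPM in tomato+ VEC and 30.0, 28.4 and 21.5 CPM in tomato- VEC. The Efnb1 libraries did not overlap either, but the difference of log2 0.97 (SE 0.47) did not pass (edgeR adjusted p = 0.347). Efna1 had 601, 525 and 542 CPM in tomato+ VEC and 753, 414 and 453 CPM in tomato- VEC, which overlapped widely (log2 0.04, SE 0.22, edgeR adjusted p = 0.982).

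Plxnb2 encodes plexin-B2, a receptor for semaphorins of class 4. It had 21.7, 14.1 and 32.2 CPM in tomato+ VEC and 164, 146 and 100 CPM in tomato- VEC. The groups were far apart and the gene fell by 2.59 on the log2 scale (SE 0.38, edgeR adjusted p = 0.00544). Robo1, a receptor for Slits, was nearly absent from tomato+ VEC, with 0.104, 0 and 0.321 CPM (4 reads in all), and had 38.0, 13.0 and 2.35 CPM in tomato- VEC. The tomato- libraries spread widely but all lay above the tomato+ ones, and the gene fell by 6.79 on the log2 scale (SE 1.14, edgeR adjusted p = 0.0102). The Robo1 call was lost with limma voom and with a fit of only the 6 VEC libraries. The calls of Efnb2 and Plxnb2 held under every alternative tried, and leaving out tomato- VEC replicate 2 added Plxnb1 and Sema5a to give 5 calls.

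The promoters of the 3 genes that passed are printed so that the letters searched can be read beside the calls. Each window holds the 250 bases before a start site in RefSeq (build GRCm38.p6, not the mm9 build of the counts). Capitals mark the only match found to 5 strings searched on both strands: TGGGAA (core of the Notch factor RBPJ), GTAAACA (forkhead), ACAAAG (SOX), CCGGAA (ETS) and CACGTG (E-box). Efnb2 lies at chr8:8661243-8661492 (minus strand), Robo1 at chr16:72662899-72663148 (plus strand), and the windows of Plxnb2 at chr15:89180789-89181038 and chr15:89173952-89174201 (minus strand).
Efnb2: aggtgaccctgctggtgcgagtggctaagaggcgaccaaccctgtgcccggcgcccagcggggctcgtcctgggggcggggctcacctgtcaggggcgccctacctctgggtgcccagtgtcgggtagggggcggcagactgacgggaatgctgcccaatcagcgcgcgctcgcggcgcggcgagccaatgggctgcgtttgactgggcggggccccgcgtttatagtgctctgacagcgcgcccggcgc
Plxnb2, first window: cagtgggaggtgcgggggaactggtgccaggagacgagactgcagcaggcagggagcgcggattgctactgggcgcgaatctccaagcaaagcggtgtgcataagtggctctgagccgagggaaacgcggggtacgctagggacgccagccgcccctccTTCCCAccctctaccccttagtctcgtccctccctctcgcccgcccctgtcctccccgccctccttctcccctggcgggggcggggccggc
Plxnb2, second window: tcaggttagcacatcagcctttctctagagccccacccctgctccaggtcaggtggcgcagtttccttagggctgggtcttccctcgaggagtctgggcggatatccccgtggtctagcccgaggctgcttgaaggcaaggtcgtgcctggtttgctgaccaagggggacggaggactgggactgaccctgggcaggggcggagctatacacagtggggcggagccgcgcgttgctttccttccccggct
Robo1: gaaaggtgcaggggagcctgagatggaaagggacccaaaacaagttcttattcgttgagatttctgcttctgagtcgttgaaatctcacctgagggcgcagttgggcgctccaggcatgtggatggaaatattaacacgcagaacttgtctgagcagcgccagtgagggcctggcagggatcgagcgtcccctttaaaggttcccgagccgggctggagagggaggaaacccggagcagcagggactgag
The first Plxnb2 window holds TGGGAA on the opposite strand, beginning 91 bases before the start. Of 32851 windows of this length over all genes, TGGGAA occurs in 21.59%, GTAAACA in 3.166%, ACAAAG in 16.46%, CCGGAA in 12.03% and CACGTG in 6.021%. RefSeq windows were matched for 59 of the 68 members, 75 windows in all, and the strings occur in 13, 0, 7, 7 and 4 of them, in the same order. A match is a description of letters and not a site.

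Among the other receptors, the neuropilins and plexins moved unevenly in the endothelium, with 1 of 10 tested lower and 9 not passing. Over all genes tested 1.08% were called lower. Nrp1, the co-receptor of secreted semaphorins and of VEGF, had 1461, 1460 and 1214 CPM in tomato+ VEC and 531, 580 and 655 CPM in tomato- VEC. The groups did not overlap, yet the difference of log2 1.23 (SE 0.35) did not pass (edgeR adjusted p = 0.111). It passed with limma voom, with DESeq2 and in a fit of the 6 VEC libraries, and without cTEC replicate 3 (edgeR adjusted p = 0.0200). Nrp2, which is prominent in venous and lymphatic vessels, had 125, 111 and 112 CPM in tomato+ VEC and 182, 137 and 82.6 CPM in tomato- VEC. Its groups overlapped, with log2 -0.20 (SE 0.48, edgeR adjusted p = 0.906). Plxnd1, the endothelial receptor of Sema3e, also overlapped, at 52.0, 44.1 and 115 CPM in tomato+ VEC and 99.1, 84.9 and 130 CPM in tomato- VEC (log2 -0.57, SE 0.63, edgeR adjusted p = 0.712). Plxnb1, the plexin-B1 receptor of Sema4d, had 0, 0.131 and 0 CPM in tomato+ VEC and 8.02, 0 and 1.23 CPM in tomato- VEC, so that 1 tomato- library held most reads (edgeR adjusted p = 0.0944).

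None of the 17 tested semaphorins passed in the endothelium, against a background of 1.65% of all genes tested. Sema7a, a lipid-anchored semaphorin that binds integrins and plexin-C1, came closest. It had 41.0, 33.3 and 30.8 CPM in tomato+ VEC and 2.34, 3.93 and 2.13 CPM in tomato- VEC. The libraries were tight within each group and far apart between them, but the difference of log2 3.64 (SE 0.90) missed the threshold (edgeR adjusted p = 0.0656). It passed with DESeq2 and with limma voom. Sema3d, a secreted semaphorin, had 0.312, 0 and 0 CPM in tomato+ VEC and 5.23, 17.8 and 4.37 CPM in tomato- VEC. From 3 reads against 254, Sema3d was 82.5-fold lower in tomato+ VEC by counted reads (95% counting interval 27.9 to 403, exact binomial), and it did not pass (edgeR adjusted p = 0.0784). Intervals and bounds of this kind cover counting error only.

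Further semaphorins separated the endothelial libraries without passing. Sema4c, a ligand of plexin-B2, had 4.05, 10.9 and 15.6 CPM in tomato+ VEC and 2.00, 1.17 and 2.02 CPM in tomato- VEC (log2 2.55, SE 0.90, edgeR adjusted p = 0.185). Sema6d had 93.1, 129 and 81.5 CPM in tomato+ VEC and 57.3, 67.8 and 61.1 CPM in tomato- VEC (log2 0.71, SE 0.32, edgeR adjusted p = 0.298). In both genes all tomato+ libraries lay above all tomato- libraries. Sema6a, which signals to plexins of the A class, did the same at 162, 162 and 183 CPM in tomato+ VEC and 115, 69.1 and 75.6 CPM in tomato- VEC. Sema3g, known from arterial endothelium, had 0.208, 0.654 and 8.14 CPM in tomato+ VEC and no read in the other 9 libraries. With 83 reads over the tomato+ VEC group it was at least 28.4-fold higher than a floor of 3 reads over the tomato- VEC group, but 76 of the reads came from replicate 3 and it was not tested.

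Sema5a and Sema3a spread widely among the tomato- libraries, with replicate 2 low in both. Sema5a had 0.312, 3.79 and 0.214 CPM in tomato+ VEC and 69.4, 0.850 and 51.3 CPM in tomato- VEC (edgeR adjusted p = 0.123). It passed when tomato- VEC replicate 2, the low library, was left out (edgeR adjusted p = 0.0482). Sema3a, the ligand of neuropilin-1, had 0, 0 and 4.28 CPM in tomato+ VEC and 38.9, 0 and 20.7 CPM in tomato- VEC (edgeR adjusted p = 0.332). Sema3f, the ligand of neuropilin-2, overlapped at 46.9, 16.2 and 38.0 CPM in tomato+ VEC and 31.8, 66.0 and 71.6 CPM in tomato- VEC (log2 -0.74, SE 0.60, edgeR adjusted p = 0.592). Sema4d was near the detection limit in both, at 0.208, 0 and 0 CPM in tomato+ VEC and 0, 0 and 0.784 CPM in tomato- VEC.

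Of the 11 tested Eph receptors none passed in the endothelium, against a background of 1.65% of all genes tested. Epha4, which binds ephrins of both types, was the highest EphA gene by RPKM in tomato+ VEC, with 110, 143 and 50.7 CPM in tomato+ VEC and 29.5, 20.9 and 22.7 CPM in tomato- VEC. The groups did not overlap but differed by log2 2.05 (SE 0.84) without passing (edgeR adjusted p = 0.250). Epha1 had 27.7, 43.0 and 16.5 CPM in tomato+ VEC and 4.57, 11.3 and 11.5 CPM in tomato- VEC, again without overlap or a call (log2 1.67, SE 0.73, edgeR adjusted p = 0.284). In the GENCODE annotation 6.97% of the exon bases of Epha1 overlap Zyx on the opposite strand, and the counting strand is not stated, so these reads cannot be assigned with certainty. Epha3, with 5 reads in tomato+ VEC and none in tomato- VEC, and Unc5d, with 4 and none, also had no overlap but lay near the floor.

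Epha2, a receptor of ephrin-A1, varied within tomato+ VEC. It had 16.1, 0.654 and 0.643 CPM in tomato+ VEC and 4.79, 21.2 and 23.3 CPM in tomato- VEC (edgeR adjusted p = 0.626). Ephb4, the venous partner of ephrin-B2, had 59.7, 135 and 111 CPM in tomato+ VEC and 141, 104 and 89.3 CPM in tomato- VEC. Its libraries were interleaved, and the log2 difference of -0.13 (SE 0.41, edgeR adjusted p = 0.939) turned to 0.18 without tomato+ VEC replicate 1 and to 0.09 without tomato- VEC replicate 1.

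Ratios of paired genes within a library restated the separation of Efnb2 and Nrp1 in the endothelium, where Ephb4 and Nrp2 overlapped. The RPKM ratio of Efnb2 to Ephb4 was 10.5, 3.00 and 4.56 in tomato+ VEC and 0.262, 0.456 and 1.06 in tomato- VEC. In the epithelium it was 7.50, 5.91 and 10.3 in tomato+ cTEC and 1.78, 2.20 and 3.45 in tomato- mTEC. The RPKM ratio of Nrp1 to Nrp2 was 13.3, 15.0 and 12.3 in tomato+ VEC and 3.32, 4.83 and 9.03 in tomato- VEC. It was 53.6, 43.1 and 58.6 in cTEC and 4.71, 10.4 and 15.8 in mTEC, where Nrp2 itself was at or below 0.569 RPKM in all 6 epithelial libraries. In each of these 4 settings the libraries of the groups did not overlap, and the 2-sided exact permutation p was 0.1, the smallest that the 20 splits of 3 against 3 allow. Adjustment over the 4 tests cannot lower it.

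**Figure D2:**
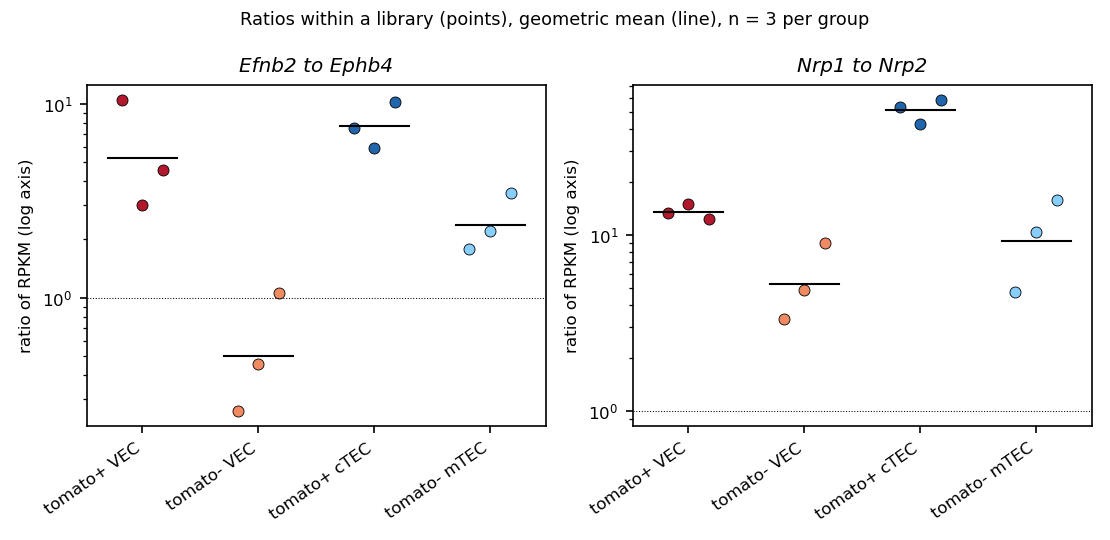
Ratio of RPKM within each library (log axis), for Efnb2 to Ephb4 on the left and Nrp1 to Nrp2 on the right; points are the 3 libraries of each group and the line is their geometric mean. In every library both ratios are higher in tomato+ VEC than in tomato- VEC, and in cTEC they lie above those in mTEC.

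Of the Slits, netrins and their receptors, Robo4 had the highest level per length in the endothelium. Robo4, the Robo receptor of endothelial cells, had 339, 258 and 292 CPM in tomato+ VEC and 645, 376 and 296 CPM in tomato- VEC. The groups overlapped (log2 -0.57, SE 0.86, edgeR adjusted p = 0.815). Ntn1, which encodes netrin-1, had 16.4, 16.5 and 27.3 CPM in tomato+ VEC and 4.12, 5.63 and 7.17 CPM in tomato- VEC, without overlap and without a call (log2 1.83, SE 0.90, edgeR adjusted p = 0.347). Unc5b, the netrin receptor of vessels, had 19.2, 0.915 and 17.4 CPM in tomato+ VEC and 4.79, 0.531 and 0 CPM in tomato- VEC (edgeR adjusted p = 0.407). Slit2 stayed at or below 0.214 CPM in all 6 endothelial libraries. Ntn4, a netrin of basement membranes, had 20 reads over all 12 libraries and was not tested.

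**Figure D3:**
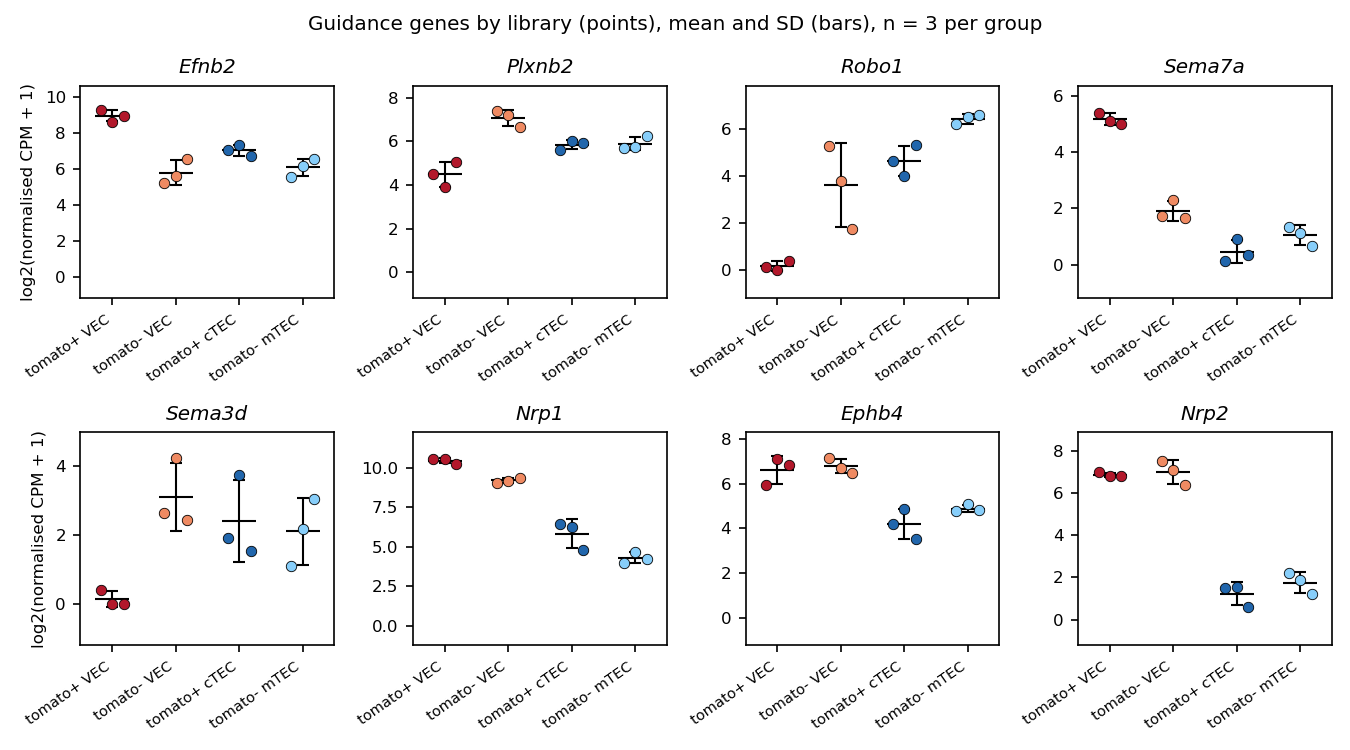
Levels of 8 guidance genes as log2(normalised CPM + 1) in each library (points) with the mean and SD of each group (bars, n = 3). In tomato+ VEC against tomato- VEC, Efnb2 and Sema7a lie higher and Plxnb2, Robo1 and Sema3d lower without overlap, Nrp1 lies higher without overlap, and Ephb4 and Nrp2 overlap.

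Vessel markers moved with the endothelial groups. The 8 arterial markers, none of them a guidance gene, summed to 999 to 1029 CPM in tomato+ VEC and 343 to 431 CPM in tomato- VEC. The 6 venous markers summed to 556 to 1335 CPM in tomato+ VEC and 8058 to 8276 CPM in tomato- VEC. The 6 lymphatic markers summed to 49.8 to 62.7 CPM in tomato+ VEC and 262 to 378 CPM in tomato- VEC, and Lyve1 among them had no read in tomato+ VEC. These 3 lists are not confined to vessels here. Lymphatic markers summed to 1024 to 1186 CPM in cTEC and 3321 to 5183 CPM in mTEC. Arterial markers summed to 521 to 788 CPM in cTEC and 515 to 653 CPM in mTEC, and venous markers to 445 to 547 CPM in cTEC and 523 to 614 CPM in mTEC. The 10 immediate early genes overlapped, at 6390 to 9781 CPM in tomato+ VEC and 6151 to 8355 CPM in tomato- VEC. The part of these markers in the differences of Efnb2, Plxnb2 and Robo1 was not tested.

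The cytoplasmic and membrane partners of these pathways were followed with a list of 90 co-receptors, proteases and effectors, 80 of which were tested. In the endothelial comparison 2 rose and 1 fell, 3 of 80 against a background of 1.65% of all genes tested. Enah, an actin regulator of guidance receptors, had 26.3, 4.32 and 3.11 CPM in tomato+ VEC and 0, 0 and 0.224 CPM in tomato- VEC (edgeR adjusted p = 0.0193). Myo10, a myosin that carries netrin receptors in filopodia, rose by log2 1.27 (SE 0.23, edgeR adjusted p = 0.0176), with 382, 402 and 450 CPM in tomato+ VEC and 123, 188 and 199 CPM in tomato- VEC. Flrt3, a membrane protein that binds Unc5 and Robo1, fell and had 0, 0 and 0.214 CPM in tomato+ VEC and 2.23, 52.0 and 19.7 CPM in tomato- VEC (edgeR adjusted p = 0.00752). The partners' median difference was log2 0.04, against 0.00 over all genes tested. It was 0.06 with 2 partners lacking reads in a group at their bound and 5 with at most 3 reads in either group left out.

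Among epithelial cells, tomato+ cTEC were compared with tomato- mTEC. Of the 56 tested members 2 rose in cTEC, Efna1 and Nrp1, and none fell by edgeR (54 did not pass). This is 3.57% of the members, against a background of 7.83% of all genes tested (2.73% higher and 5.1% lower). At an unadjusted p under 0.05 there were 14 members in either direction, against 20.4% of all genes tested, and limma voom and DESeq2 called members lower as well. The members' median difference was log2 0.01, or -0.05 with 1 gene lacking reads in a group at its bound and 1 with at most 3 reads in either group left out, against 0.02 over all genes tested. Libraries did not overlap for 11 members higher and 11 lower, against 18.7% and 20.3% of all genes tested.

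Efna1 had 277, 284 and 264 CPM in cTEC and 101, 105 and 104 CPM in mTEC. Both groups were tight and well apart, and the gene rose by log2 1.41 (SE 0.23, edgeR adjusted p = 0.00390). Its call held under every alternative tried. Nrp1 had 86.4, 74.2 and 26.8 CPM in cTEC and 14.8, 24.5 and 17.8 CPM in mTEC, with cTEC replicate 3 just above the highest mTEC library. It rose by log2 1.71 (SE 0.36, edgeR adjusted p = 0.0158). The Nrp1 call, and with it 1 of the 2 calls of this comparison, was lost without cTEC replicate 1 (edgeR adjusted p = 0.0705), cTEC replicate 2 (0.0525), mTEC replicate 1 (0.0728) or mTEC replicate 3 (0.0541). In the same cTEC libraries, in replicate order, the 8 endothelial markers summed to 19.5, 389 and 2.25 CPM and Robo4 had 0.183, 1.76 and 0 CPM. The 11 fibroblast and mural markers summed to 2004 to 2377 CPM in cTEC and 836 to 1097 CPM in mTEC. The part of these markers in the differences of Nrp1 and Efna1 was not tested.

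Efnb2, the endothelial leader, had 130, 163 and 107 CPM in cTEC and 46.7, 71.9 and 91.8 CPM in mTEC. The groups did not overlap and the difference of log2 0.93 (SE 0.37) did not pass (edgeR adjusted p = 0.167). Plxnb2 overlapped, at 47.4, 63.6 and 60.0 CPM in cTEC and 50.8, 52.2 and 74.5 CPM in mTEC (log2 -0.05, SE 0.35, edgeR adjusted p = 0.970). Sema6a had 2.66, 11.1 and 2.86 CPM in cTEC and 22.7, 20.6 and 13.8 CPM in mTEC. All cTEC libraries lay below all mTEC libraries, and the fitted group difference was log2 -1.78 (SE 0.51). Sema6a narrowly missed the threshold (edgeR adjusted p = 0.0544) and passed without cTEC replicate 2 (edgeR adjusted p = 0.00288). Unc5c, a netrin receptor, had 4.40, 2.16 and 4.42 CPM in cTEC and 12.4, 55.7 and 29.7 CPM in mTEC (log2 -3.15, SE 0.97, edgeR adjusted p = 0.0714).

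The remaining named genes of the epithelium did not pass. Sema7a was at or below 1.54 CPM in all 6 libraries. Ephb4 had 17.5, 27.8 and 10.5 CPM in cTEC and 26.4, 33.0 and 26.9 CPM in mTEC (edgeR adjusted p = 0.468). Sema4b, the highest class 4 semaphorin by RPKM in cTEC, had 54.7, 66.1 and 43.6 CPM in cTEC and 19.4, 22.9 and 22.4 CPM in mTEC, without overlap (log2 1.34, SE 0.70, edgeR adjusted p = 0.320). Sema5a showed no overlap either, at 29.0, 46.4 and 46.9 CPM in cTEC and 2.22, 6.74 and 10.8 CPM in mTEC (log2 2.62, SE 1.29, edgeR adjusted p = 0.286). Ntn1 had 1.19, 7.94 and 2.51 CPM in cTEC and 0.964, 0.465 and 0.240 CPM in mTEC (edgeR adjusted p = 0.104). Sema4d was lower in cTEC in every library, at 0.367, 1.18 and 2.16 CPM against 4.15, 5.35 and 5.61 CPM in mTEC (edgeR adjusted p = 0.558). Slit2 had 14.6, 3.04 and 10.3 CPM in cTEC and 1.54, 4.30 and 0.641 CPM in mTEC, which overlapped (edgeR adjusted p = 0.329). Plxnd1 had 6.05, 40.9 and 9.52 CPM in cTEC and 7.42, 9.18 and 10.9 CPM in mTEC. Its high value sat in cTEC replicate 2, where the 8 endothelial markers summed to 389 CPM. The part of these markers in that value was not tested.

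Other epithelial members ranged in both directions. Sema3c, a secreted semaphorin, had 35.6, 60.7 and 26.9 CPM in cTEC and 0.0964, 9.30 and 0.0802 CPM in mTEC, and Robo2 had 0.0917, 0.980 and 4.33 CPM in cTEC and 31.0, 11.9 and 38.6 CPM in mTEC. Neither passed, although the libraries of both genes were separate (edgeR adjusted p = 0.185 and 0.159). Robo1 was lower in every cTEC library, at 23.8, 15.1 and 38.5 CPM, than in mTEC, at 72.6, 91.5 and 96.4 CPM (log2 -1.75, SE 0.84, edgeR adjusted p = 0.269). Sema3a had 28.6, 44.8 and 67.0 CPM in cTEC and 29.0, 16.9 and 20.3 CPM in mTEC (edgeR adjusted p = 0.815). Sema3f, Epha2 and Unc5b did not pass either.

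Among the 80 tested partners 9 rose and 2 fell in cTEC, against a background of 2.73% higher and 5.1% lower among all genes tested, with a median difference of log2 0.34 against 0.02 over all genes tested. Those with the smallest p that rose were Dpysl2, a cytoplasmic mediator of semaphorin signals (log2 1.97, SE 0.20, edgeR adjusted p = 0.000216), the integrin chains Itga1 and Itgb1, the small GTPase Rras, the VEGF receptor Kdr and the kinase Rock2. Cntn1 and Cd72, a receptor of Sema4d on immune cells, fell, with 1.74, 3.14 and 6.58 CPM of Cd72 in cTEC and 166, 106 and 123 CPM in mTEC. Kdr is also one of the 8 endothelial markers and had 11.4, 23.4 and 0.0866 CPM in cTEC and 0, 0.465 and 0 CPM in mTEC. The 5 myeloid markers summed to 9.70 to 159 CPM in cTEC and 358 to 402 CPM in mTEC, most of it Lyz2. The 3 B cell markers summed to 0 to 2.51 CPM in cTEC and 7.21 to 36.7 CPM in mTEC, and the 7 Schwann and neural markers to 9.26 to 29.5 CPM in cTEC and 69.5 to 104 CPM in mTEC. The part of these markers and of the fibroblast and mural ones in the partners' differences was not tested.

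The difference between the contrasts, tomato+ over tomato- VEC minus tomato+ cTEC over tomato- mTEC, was tested with an interaction term. Of the 56 tested members 2 were higher, Efnb2 and Sema7a, and 2 lower, Plxnb2 and Efna1, or 7.14% of members against a background of 3.08% of all genes tested (1.54% in each direction). For the 33 tested members with more than 3 reads in each group the median difference was log2 0.50. The median over all genes tested, to which this limit on reads was not applied, was 0.00. Plxnb2 differed by log2 -2.54 (SE 0.51, edgeR adjusted p = 0.0231); it fell in tomato+ VEC and did not pass in the epithelium. Efna1 differed by log2 -1.37 (SE 0.32, edgeR adjusted p = 0.0411); it did not pass in the endothelium and rose in cTEC. Efnb2 differed by log2 2.18 (SE 0.52, edgeR adjusted p = 0.0450), with all libraries of both tomato+ populations above their tomato- counterparts. Sema7a differed by log2 5.02 (SE 1.23, edgeR adjusted p = 0.0495), although it passed in neither contrast alone. At an unadjusted p under 0.05 there were 16 members, against 17.6% of all genes tested. Of the partners Nck2 was higher (log2 1.67), and Dpysl2 (log2 -1.69) and Flrt3 (log2 -7.51) were lower.

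These 4 calls rested on small margins. Leaving out each library in turn gave 0 to 4 calls, members newly called included, and no omission kept all 4. No member was called without tomato- VEC replicate 1, cTEC replicate 1, cTEC replicate 3, mTEC replicate 1 or mTEC replicate 2. There was 1 call without tomato+ VEC replicate 1, tomato+ VEC replicate 3 or mTEC replicate 3, and there were 2 without cTEC replicate 2. Plxnb2 was lost in those 5 cases and without tomato- VEC replicate 2 or cTEC replicate 2, with edgeR adjusted p of 0.0504 to 0.0736. Efna1 was lost without any library but tomato- VEC replicates 2 and 3 (edgeR adjusted p of 0.0600 to 0.102). Efnb2 was lost without any library but tomato+ VEC replicate 2 and tomato- VEC replicate 3 (0.0602 to 0.108), and Sema7a without any but cTEC replicate 2 (0.0601 to 0.125). The plot of both contrasts places each tested member by its differences.

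**Figure D4:**
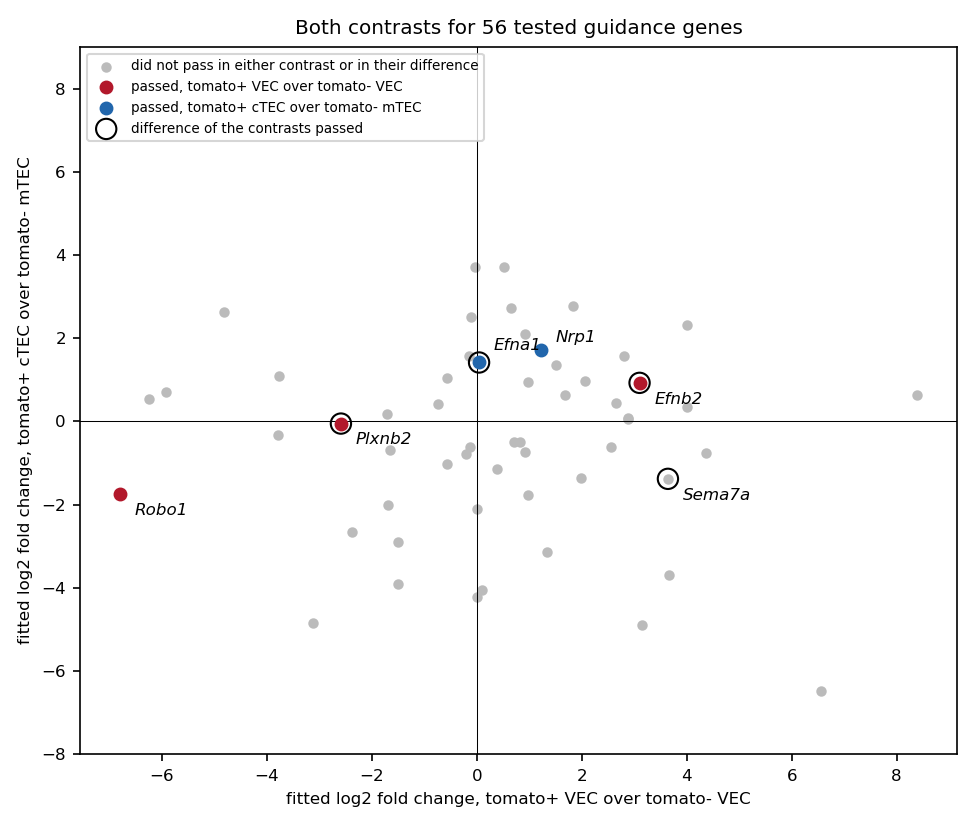
Fitted log2 fold change of 56 guidance genes in tomato+ VEC over tomato- VEC (horizontal) and in tomato+ cTEC over tomato- mTEC (vertical). Red points passed in the VEC comparison and blue ones in the TEC comparison, and a ring marks the 4 genes whose difference between the contrasts passed; fitted values of genes with few reads in a group depend on the prior count.

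The last comparison set both VEC groups against both TEC groups, 6 libraries each. Of the 56 tested members 39 passed (69.6%), 16 higher and 23 lower in VEC, and 17 did not. The background was 36.3% of all genes tested, 14.4% higher and 21.8% lower. The members' median difference was log2 -1.13, against -0.18 over all genes tested. The latter median moved to -0.31 with relative log expression scaling and to -0.44 with limma voom. Of the tested members with at most 3 reads in 1 tissue, Efna3, Epha7, Ephb3, Ephb6 and Ntn5 passed the low-count filter through TEC. Sema6b passed it through VEC. Each of these could differ in only 1 direction, and the counts and median given here include them. Libraries did not overlap for 12 members higher and 10 lower, against 7.49% and 9.49% of all genes tested. At an unadjusted p under 0.05 there were 40 members, against 43.8% of all genes tested. By role, 5 of 10 tested plexins and neuropilins were higher and 2 lower, 3 of 6 ephrins were higher and 3 lower, and 2 of 11 Eph receptors were higher and 5 lower. Of the semaphorins 4 of 17 were higher and 6 lower, of the Slits and netrins 1 of 5 was higher and 2 lower, and of the Robo and Unc5 receptors 1 of 7 was higher and 5 lower.

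The neuropilins had the smallest adjusted p of all members tested. Nrp1 ranged from 531 to 1461 CPM in VEC (median 934) and from 14.8 to 86.4 CPM in TEC (median 25.6), a rise of log2 4.71 (SE 0.29, edgeR adjusted p = 2.27e-07). Nrp2 ranged from 82.6 to 182 CPM in VEC (median 119) and from 0.520 to 3.57 CPM in TEC (median 1.90), a rise of log2 6.03 (SE 0.43, edgeR adjusted p = 6.12e-07). Robo4 ranged from 258 to 645 CPM in VEC (median 317) and from 0 to 3.05 CPM in TEC (median 0.440). Its rise was log2 8.62 (SE 0.87, edgeR adjusted p = 1.22e-05). In all 3 genes the lowest endothelial library lay far above the highest epithelial one.

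The ligands Efna1, Sema6a and Sema6b were also higher in the endothelium. Efna1 ranged from 414 to 753 CPM in VEC (median 534) and from 101 to 284 CPM in TEC (median 184), a rise of log2 1.70 (SE 0.16, edgeR adjusted p = 7.92e-06). Relative to the median of all genes tested that rise was 1.88, and that of Efnb2 was 1.02. Sema6a ranged from 69.1 to 183 CPM in VEC (median 138) and from 2.66 to 22.7 CPM in TEC (median 12.4), a rise of log2 3.56 (SE 0.38, edgeR adjusted p = 1.99e-05). Sema6b had 1610 reads over the VEC libraries and 2 over the TEC libraries, a ratio of 957 (95% counting interval 265 to 7909, exact binomial; edgeR adjusted p = 3.04e-05). Of the receptors, Plxna2, a plexin for class 6 semaphorins, ranged from 64.7 to 227 CPM in VEC and from 13.8 to 35.3 CPM in TEC (log2 2.65, SE 0.34, edgeR adjusted p = 7.26e-05). Ephb4 ranged from 59.7 to 141 CPM in VEC and from 10.5 to 33.0 CPM in TEC (log2 2.20, SE 0.30, edgeR adjusted p = 0.000139).

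Other members were higher in the TEC libraries. These also held markers of other cells: the 11 fibroblast and mural markers summed to 22.8 to 58.2 CPM in VEC libraries and 836 to 2377 CPM in TEC libraries, and the 5 myeloid markers reached 402 CPM in mTEC. Their part in the members lower in VEC was not tested. Ephb3, an EphB receptor, had 3 reads over the VEC libraries and 1251 over the TEC libraries, 351-fold lower in VEC (95% counting interval 120 to 1703, exact binomial; edgeR adjusted p = 6.98e-05). Plxnb1 ranged from 0 to 8.02 CPM in VEC (median 0.0654) and from 25.9 to 134 CPM in TEC (median 75.1) and fell by 7.56 on the log2 scale (SE 1.06, edgeR adjusted p = 0.000155). Sema4b ranged from 0.536 to 5.40 CPM in VEC and from 19.4 to 66.1 CPM in TEC (log2 -4.10, SE 0.56, edgeR adjusted p = 0.000122). Unc5c ranged from 0 to 0.536 CPM in VEC and from 2.16 to 55.7 CPM in TEC (log2 -5.82, SE 0.81, edgeR adjusted p = 0.000147). No library of one tissue reached the range of the other in these 4 genes.

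The other members higher in VEC were Efnb1, Efnb2, Sema7a, Sema3f, Plxnd1, Plxna4, Epha4 and Ntn1. Those lower were Efna3, Efna4, Efna5, Epha3, Epha5, Epha7, Ephb6, Sema3b, Sema3c, Sema3e, Sema4a, Sema4d, Plxna3, Slit2, Robo1, Robo2, Ntn5, Unc5a and Unc5d. Of these, 23.42% of the exon bases of Ntn5 overlap a gene on the opposite strand, as do 14.56% of Efna3 and 10.51% of Efna4. Leaving out any 1 of the 12 libraries ended at least 2 of the calls, always among Efna3, Efnb2, Epha5, Plxna3, Sema3e, Sema3f, Sema4d and Unc5a. With members newly called included, 31 to 38 were called on each omission. Efnb2 averaged 507 ± 109 CPM in tomato+ VEC and 59.1 ± 30.4 CPM in tomato- VEC, against 133 ± 28.2 CPM in cTEC and 70.1 ± 22.6 CPM in mTEC, so that tomato- VEC lay below cTEC and overlapped mTEC. Its call was lost without tomato- VEC replicate 3, cTEC replicate 3 or mTEC replicate 1. The 12 members with ranges or read counts above kept their calls without any 1 library, cTEC replicate 2 included. Plxnb2 (log2 -0.06, SE 0.25) and Sema6d (log2 0.03, SE 0.22) did not pass (edgeR adjusted p = 0.896 and 0.942). For Plxnb2 the low tomato+ VEC and high tomato- VEC libraries lay on either side of the epithelial ones. Of the 80 tested partners 27 were higher and 22 lower, against a background of 14.4% higher and 21.8% lower (median log2 0.05, against -0.18 over all genes tested). They were led by the kinase Fyn, the adaptor Nck1, the protease Adam10, which sheds ephrins, Rnd1, a GTPase that binds plexins, and Sdcbp as higher, and Tiam1, Gpc1 and Mmp9 as lower.

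Levels of these genes also ranged between the populations within a tissue. Sema7a averaged 35.1 ± 5.32 CPM in tomato+ VEC, 2.80 ± 0.985 CPM in tomato- VEC, 0.411 ± 0.416 CPM in cTEC and 1.09 ± 0.495 CPM in mTEC (SD, n = 3 each). Sema3c averaged 41.1 ± 17.5 CPM in cTEC and 3.16 ± 5.32 CPM in mTEC, and 0.106 ± 0.107 CPM in tomato+ VEC and 0.0725 ± 0.0629 CPM in tomato- VEC. Robo2 and Sema3b, in contrast, were highest in mTEC, Robo2 at 1.80 ± 2.23 CPM in cTEC and 27.1 ± 13.8 CPM in mTEC, and Sema3b at 2.31 ± 1.19 CPM in cTEC and 14.6 ± 0.857 CPM in mTEC. Robo1, a Slit receptor as Robo2 is, averaged 0.142 ± 0.164 CPM in tomato+ VEC, 17.8 ± 18.3 CPM in tomato- VEC, 25.8 ± 11.8 CPM in cTEC and 86.8 ± 12.5 CPM in mTEC, so that tomato- VEC overlapped cTEC. Efnb1 descended without overlap through the 4 groups, at 52.1 ± 14.7 CPM in tomato+ VEC, 26.6 ± 4.48 CPM in tomato- VEC, 11.0 ± 1.13 CPM in cTEC and 5.73 ± 1.91 CPM in mTEC. Nrp1 was the other gene described here with that order, at 1378 ± 142, 588 ± 62.5, 62.4 ± 31.5 and 19.0 ± 5.00 CPM in tomato+ VEC, tomato- VEC, cTEC and mTEC. Efna5 averaged 31.6 ± 31.3 CPM in tomato+ VEC, with 0.104, 31.8 and 62.8 CPM in its libraries, 5.04 ± 2.97 CPM in tomato- VEC, 171 ± 53.0 CPM in cTEC and 127 ± 23.8 CPM in mTEC.

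**Figure D5:**
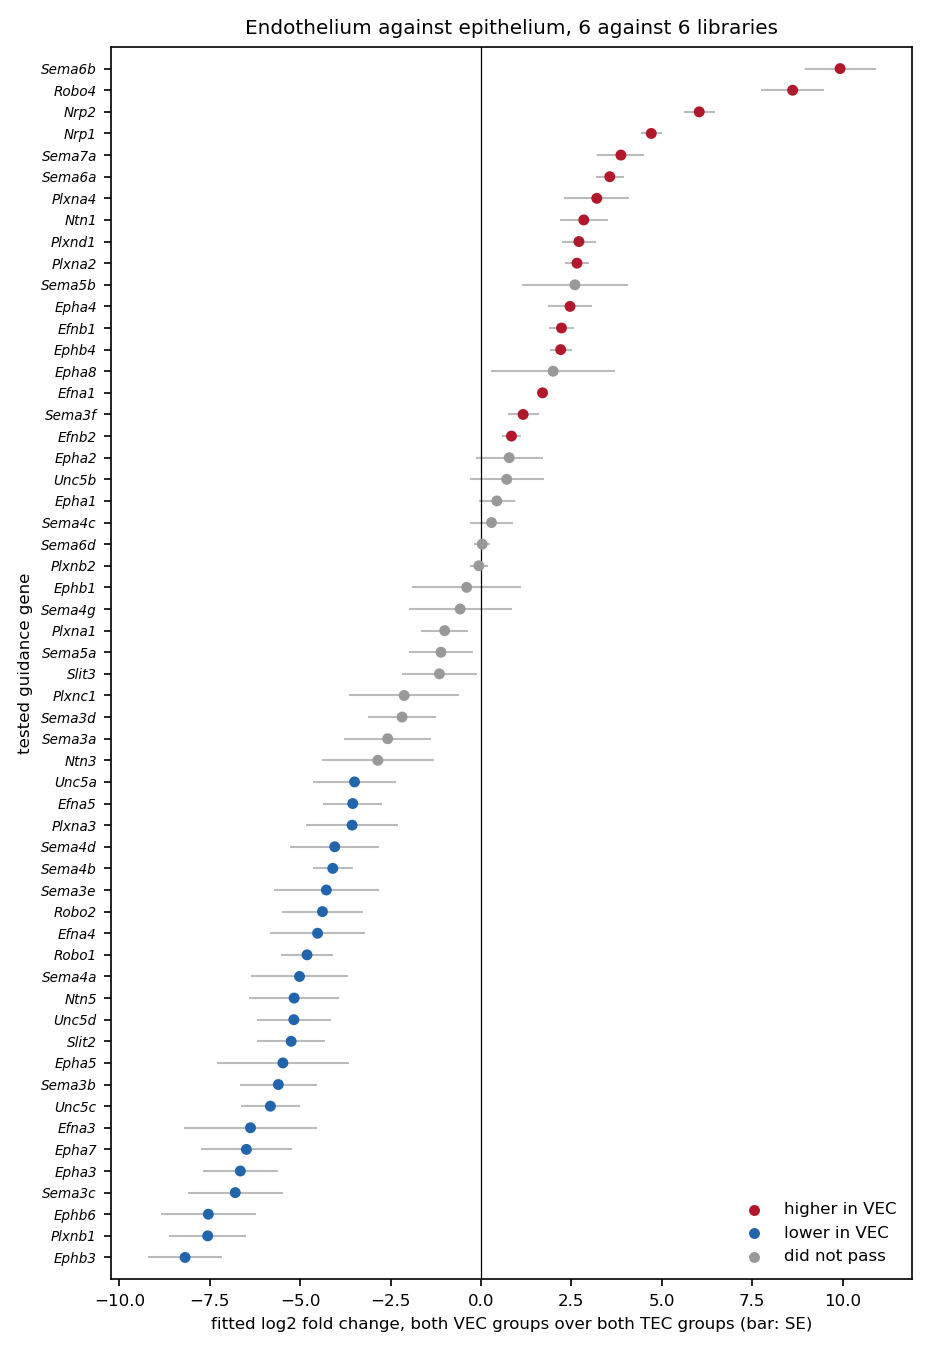
Fitted log2 fold change (points) with its SE (bars) for the 56 tested guidance genes in both VEC groups over both TEC groups, 6 against 6 libraries, ordered by size. The 16 red genes were higher in VEC, the 23 blue ones lower, and the 17 grey ones did not pass; values of genes with almost no reads in one tissue, such as Sema6b and Ephb3, depend on the fit's prior count.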

How the data were processed

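Polyadenylated RNA of 12 libraries was amplified with a SMARTer kit for ultra-low input, per the labels' protocols. TopHat2 2.0.10 and build mm9 are listed, per the submitters' processing notes. Which program counted reads, on which strand and with what annotation is not given in the sources used here. Raw read counts per gene were deposited by the authors, with RPKM beside them, per the file headers. For 180417 values, RPKM recomputed from counts, column totals and 1 length per gene matched those deposited (relative tolerance 1e-06).

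Counts were tested with edgeR 4.0.16 (R 4.3.3): filterByExpr with a minimum count of 10 left 14792 of 23306 genes, scaling was by TMM, and the quasi-likelihood model held all 12 libraries with 1 coefficient for each of the 4 groups, leaving 8 residual degrees of freedom. Genes were called at a Benjamini-Hochberg adjusted p under 0.05. CPM are TMM-normalised. DESeq2 1.42.0, limma 3.58.1 (voom with sample weights), relative log expression scaling, no filter, the 6 libraries compared alone, a replicate block and leaving out each library were alternatives. Scripts were tested on simulated data.

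Full statistics were given for called members (at most 12 per comparison), for known vessel and stromal genes, for the leading member of each family by RPKM, and for members with an unadjusted p under 0.05 and separate libraries in VEC; at most 8 called partners were named. Other members were named after their values were seen. Members and lists were chosen with earlier results of these data known. Promoters came from RefSeq, GRCm38.p6, and overlaps from GENCODE.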

Additional observations from a re-analysis of the deposited data

Results flagged for a closer look

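The difference between the contrasts (tomato+ over tomato- VEC, minus tomato+ cTEC over tomato- mTEC) passed the interaction test in edgeR for 4 guidance genes. Plxnb2 stood at log2 -2.54, because it was lower in tomato+ VEC than in tomato- VEC (log2 -2.59) and overlapped between cTEC and mTEC (log2 -0.05). Efna1 stood at log2 -1.37, with log2 0.04 in the endothelium and 1.41 in the epithelium. Efnb2 stood at log2 2.18, with log2 3.10 in the endothelium and 0.93 in the epithelium. Sema7a stood at log2 5.02, with log2 3.64 in the endothelium and -1.38 in the epithelium, where it had at most 1.54 CPM. The reporter changes together with the cortical or medullary layer in the epithelium, so their parts in these differences cannot be told apart.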

How the results depend on the processing

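In the VEC comparison DESeq2 called 10 members against 3, the other tools and settings 3 or 4, and leaving out libraries gave 3 to 5. In the TEC comparison DESeq2 called 9, limma voom 17 and the 6 TEC libraries alone 9, against 2 (13.3%, 22.6% and 17.7% of all genes, against 7.83%), and leaving out libraries gave 1 to 3. For endothelium against epithelium the settings gave 34 to 39, and leaving out libraries 31 to 38. For the difference of the contrasts DESeq2 called 14 and limma voom 7, against 4 (9.51% and 6.29% of all genes, against 3.08%), and leaving out libraries gave 0 to 4. DESeq2 also called more of all genes in the VEC comparison, 8.33% against 1.65%. The cause was not tested.

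Over the alternatives the adjusted p of Efnb2 in VEC was 3.47e-11 to 0.0153, of Plxnb2 8.52e-10 to 0.0429 and of Robo1 5.01e-08 to 0.140. In the epithelium that of Efna1 was 6.81e-06 to 0.0220 and that of Nrp1 0.000821 to 0.0728. Uncalled differences that changed sign did so when 1 library was left out. In VEC Ephb4 turned to log2 0.18 and 0.09 without replicate 1 of tomato+ and of tomato- VEC (range over omissions -0.33 to 0.18), Nrp2 to 0.10 (-0.43 to 0.10), Sema4d to 2.77 (-4.45 to 2.77), and Efna1 to -0.049 and -0.046 without tomato- VEC replicate 2 and 3 (-0.049 to 0.37). In the epithelium Plxnd1 turned to -0.25 without cTEC replicate 2 (-0.25 to 1.40), Robo4 to 0.96 (-3.70 to 0.96), Sema3f to -0.092 (-0.092 to 1.04), and Plxnb2 to 0.03 and 0.17 (-0.16 to 0.17).

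With the replicate number as a block the VEC and TEC counts stayed at 3 and 2 and the difference of the contrasts kept 1 call, Plxnb2. Deviations of libraries with the same number correlated at 0.00464 to 0.0768 in VEC and -0.0136 to 0.0417 in TEC. These values cannot decide whether the numbers pair samples, because libraries with different numbers were not correlated for reference.

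The 12 untested members did not pass the filter on low counts, with 5 to 99 reads each over all 12 libraries. In some of them most reads lay in 1 library, as 76 of the 83 reads of Sema3g did. Members under about 1 CPM in a group rest on few reads.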
